A study of Saccharomyces cerevisiae with 12 samples.

Results

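The genes described here are 38 genes of *Saccharomyces cerevisiae* that encode the enzymes and transporters of peroxisomal fatty acid β-oxidation, their transcriptional activators, and the peroxins, the proteins that build and maintain peroxisomes. They were taken by gene symbol from a list of these roles, which was drawn up with earlier results of these data known. All 38 were found by gene symbol among the 5716 probe sets that the deposited table pairs with a yeast gene, each through 1 probe set, the several short oligonucleotides that together read a transcript. Of these genes, 14 encode enzymes, transporters or activators, and 24 encode peroxins.

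The arrays came from 4 groups of 3 biological replicates each. These were MnSOD-deficient EG110 cells grown for 48 h in YPE, a medium with ethanol as carbon source, with 15 mM aspirin (acetylsalicylic acid), untreated EG110 cells, wild-type EG103 cells grown with 15 mM aspirin, and untreated EG103 cells. EG103 is a MATα GAL+ strain with mutations for leucine (leu2-3 112), histidine (his3Δ1), tryptophan (trp1-289a) and uracil (ura3-52) auxotrophy. EG110 is EG103 in which *TRP1* replaces *SOD2* (sod2Δ::TRP1), which encodes the manganese superoxide dismutase of the mitochondrion, so that the strains share all these markers but differ in *TRP1* as well as in *SOD2*. The pH of the aspirin medium was adjusted with Trizma base before inoculation, that of the untreated medium is not given in the sources used here, and each strain is a single genetic background.

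In budding yeast the β-oxidation of fatty acids takes place only in peroxisomes, single-membrane organelles that import folded proteins from the cytosol. Acyl-CoA oxidase starts each round and gives off hydrogen peroxide, a multifunctional enzyme carries out the hydration and the dehydrogenation, and a thiolase releases acetyl-CoA. Most of these genes are repressed by glucose, are released from repression on carbon sources such as ethanol with the help of the activator Adr1, and are induced by oleate through the activator pair Oaf1 and Pip2. Matrix proteins reach the organelle through the receptors Pex5 and Pex7, which dock at the membrane, release their cargo inside and return to the cytosol. Pex5 is pulled back after it has been tagged with ubiquitin.

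The labels were checked against the arrays. *SOD2* averaged 4.77 ± 0.04 log2 units in aspirin-treated and 4.71 ± 0.26 in untreated EG110 cells, below the 95th percentile of probe sets with no yeast gene, against 14.28 ± 0.08 in aspirin-treated and 14.30 ± 0.09 in untreated EG103 cells (SD, n = 3 arrays each). The α-cell genes *MF(ALPHA)1*, *MF(ALPHA)2*, *STE3* and *SAG1* had group means between 9.21 and 14.15, and the a-cell genes *STE2*, *MFA1*, *MFA2* and *BAR1* between 7.29 and 9.56. These ranges overlapped, since in untreated EG103 cells *MFA1* averaged 9.53 and *MF(ALPHA)2* 9.21. The a-cell genes also lay above that 95th percentile, so that the mating type was only partly checked. The 38 genes lay between 9.04 and 12.77 on every array, above the 95th percentile of the probe sets with no yeast gene, which was between 5.26 and 5.50. Median log2 values of the tested probe sets lay between 11.15 and 11.18 for EG110 and between 11.36 and 11.39 for EG103, a shift of -0.21 of EG110 against EG103. Levels below are log2 values as deposited. Aspirin comparisons use these values, and comparisons of the strains use arrays centred on their own medians, which takes out the shift. RNA came from whole cultures, so that less RNA in every cell and the same RNA in fewer cells cannot be told apart.

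Several genes of the β-oxidation pathway were lower with aspirin in EG110 cells, and the genes of the thiolase co-receptors moved in opposite directions. In aspirin-treated against untreated EG110 cells, the thiolase gene *POT1*, the isomerase genes *ECI1* and *DCI1*, the isocitrate dehydrogenase gene *IDP3* and the co-receptor gene *PEX18* fell by 1.55-fold to 1.94-fold, and the co-receptor gene *PEX21* rose 1.79-fold. A gene was called when limma, a linear model fitted to all tested probe sets, gave a Benjamini-Hochberg-adjusted *P* below 0.05 and the fold change was at least 1.5, which is 0.58 on the log2 scale. By this rule 6 of the 38 genes (15.8%) were called with aspirin in EG110 cells, 1 higher and 5 lower, while 12% of all tested probe sets were called, 5.90% higher and 6.09% lower. By adjusted *P* alone the numbers were 24 of 38 genes (63.2%), 5 higher and 19 lower, against 52.3% of all tested probe sets, 27.2% higher and 25.1% lower. For 27 genes (71.1%) the aspirin-treated and untreated EG110 arrays did not overlap, against 62.0% of all. The median log2 fold change of the 38 genes was -0.19, against 0.02 for all tested probe sets. The 12 enzyme and transport genes had a median of -0.49, and 4 were called, all lower. The 24 peroxin genes had a median of -0.08, and 2 were called, 1 in each direction.

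In aspirin-treated against untreated EG103 cells, 0 of the 38 genes were called, against a background of 2.61% (1.75% higher and 0.857% lower). At an unadjusted *P* below 0.05 limma found 14 genes (36.8%, against 35.6% of all tested probe sets). At an adjusted *P* below 0.05 alone it found 12 (31.6%, 5 higher and 7 lower), against 20.6% of all (12% higher and 8.59% lower). An ordinary unpaired *t*-test gave 0 called after adjustment (background 1.05%). The study's methods name that test for pairwise comparisons in general, and moderated *t*-statistics for the arrays. The groups did not overlap for 17 genes (44.7%, background 39.0%). The median log2 fold change was -0.07, against 0.01 for all tested probe sets. The aspirin effect itself differed between the strains for 6 genes (15.8%, background 11.6%, of which 5.21% positive and 6.37% negative). This interaction, the log2 fold change in EG110 cells less the one in EG103 cells, was negative for *POX1*, *POT1*, *ECI1*, *DCI1* and *PEX18* and positive for *PEX21*. By adjusted *P* alone it was called for 16 genes (42.1%, background 33.1%), 4 positive (background 16.2%) and 12 negative (background 17.0%). With 3 arrays against 3, an exact two-sided permutation test on 1 gene cannot give a *P* below 0.1, so that all adjusted *P* values below are limma's, and errors of fold changes are its standard errors (SE).

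**Figure D1:**
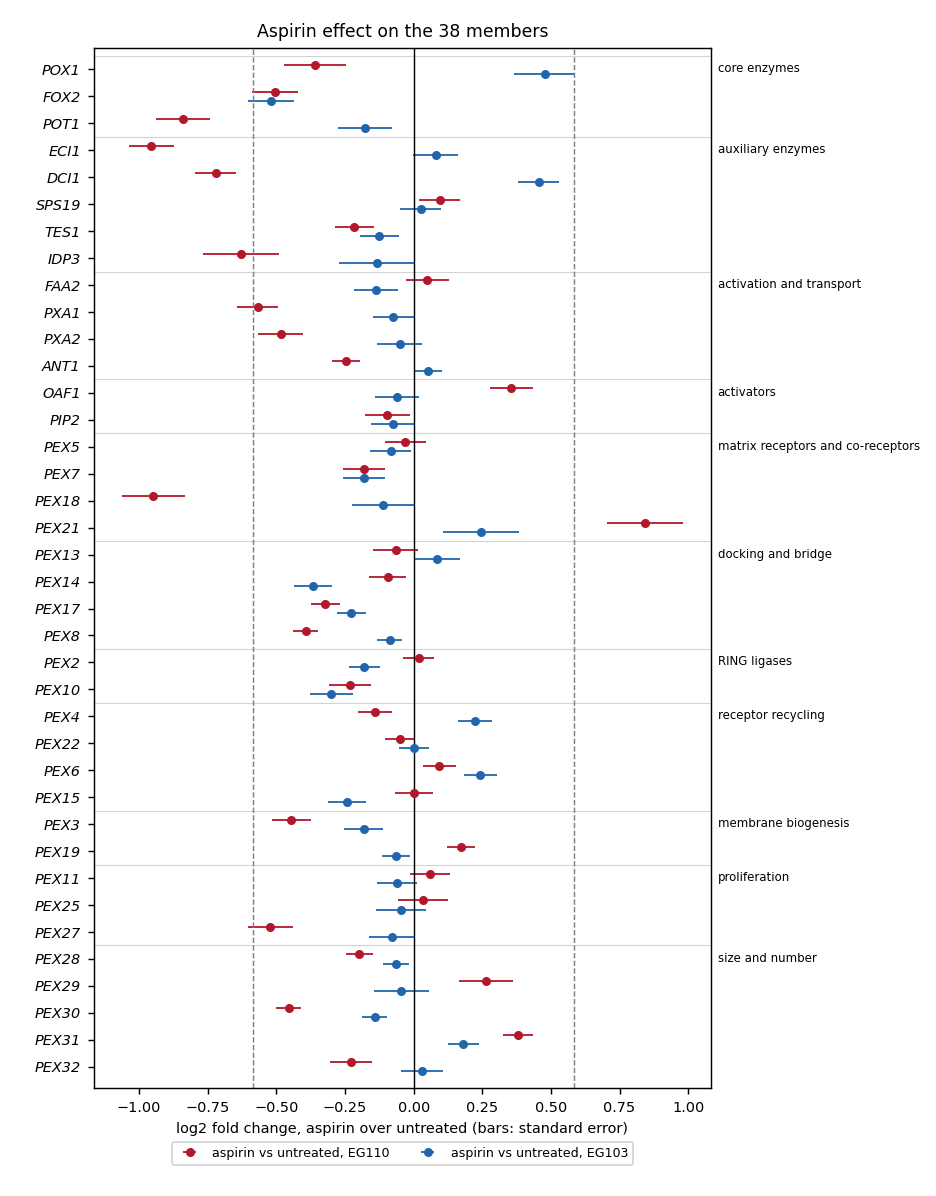
Log2 fold change of aspirin-treated over untreated cells for the 38 genes, ordered by role, in EG110 cells (red) and EG103 cells (blue). Points are limma's estimates, bars are standard errors, and dashed lines mark a fold change of 1.5. In EG110 cells 5 genes lie beyond the left line and *PEX21* beyond the right one, and in EG103 cells 0 genes lie beyond either.

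Of the core enzymes, *POT1* (YIL160C), which encodes the 3-ketoacyl-CoA thiolase of the last step, had log2 values of 11.12, 10.98 and 11.32 in aspirin-treated EG110 cells, against 11.92, 11.91 and 12.10 in untreated EG110 cells. Every aspirin array lay below every untreated one. The log2 fold change was -0.84 (SE 0.098, adjusted *P* = 2.83e-05). In EG103 cells *POT1* read 9.70, 9.63 and 9.88 with aspirin, against 9.78, 9.93 and 10.03 untreated, and the groups overlapped (log2 fold change -0.18, 95% interval -0.39 to 0.04, adjusted *P* = 0.225). The aspirin effects of the strains differed by -0.66 (SE 0.139, adjusted *P* = 0.00371). This difference was no longer called without aspirin-treated EG110 replicate 2, at -0.58, which is just under the fold threshold, or when replicate 1 was left out of all groups, at -0.63 (adjusted *P* = 0.0719).

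*POX1* (YGL205W), which encodes acyl-CoA oxidase, the enzyme of the first step, had fold changes of opposite sign in the strains. It had log2 values of 9.24, 9.21 and 9.39 in aspirin-treated EG110 cells, against 9.55, 9.49 and 9.88 in untreated EG110 cells, a log2 fold change of -0.36 (SE 0.112, adjusted *P* = 0.0179). In EG103 cells the values were 9.76, 10.04 and 9.92 with aspirin, against 9.24, 9.54 and 9.49 untreated, a log2 fold change of 0.48 (SE 0.112, adjusted *P* = 0.0132). The groups did not overlap in either strain, and neither change reached 1.5-fold. The difference between the effects did, at -0.84 (SE 0.159, adjusted *P* = 0.00196).

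*FOX2* (YKR009C), the gene of the multifunctional enzyme between these steps, had nearly the same aspirin effect in both strains. Its values were 12.07, 12.06 and 12.12 in aspirin-treated EG110 cells, against 12.44, 12.56 and 12.77 untreated (log2 fold change -0.50, SE 0.083, adjusted *P* = 0.000363). They were 11.47, 11.69 and 11.46 in aspirin-treated EG103 cells, against 12.09, 12.11 and 11.99 untreated (log2 fold change -0.52, SE 0.083, adjusted *P* = 0.00198). Neither passed the fold threshold, and the interaction was 0.02 (95% interval -0.24 to 0.27). In EG103 cells *FOX2* was called, at -0.59, when aspirin-treated replicate 2 was left out.

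The auxiliary enzymes handle fatty acids with double bonds and by-products of the cycle. *ECI1* (YLR284C), which encodes the enoyl-CoA isomerase needed for unsaturated fatty acids, had log2 values of 9.53, 9.52 and 9.59 in aspirin-treated EG110 cells, against 10.50, 10.54 and 10.47 in untreated EG110 cells. The replicates of each group lay close together, and aspirin lowered the level 1.94-fold (log2 fold change -0.95, SE 0.081, adjusted *P* = 2.47e-06). In EG103 cells the values were 10.42, 10.56 and 10.76 with aspirin, against 10.40, 10.47 and 10.63 untreated, with overlapping groups (log2 fold change 0.08, 95% interval -0.10 to 0.26, adjusted *P* = 0.515). The interaction was -1.04 (SE 0.115, adjusted *P* = 5.26e-05). As deposited, only the aspirin-treated EG110 arrays stood apart, and the other 9 arrays lay between 10.40 and 10.76. After centring, untreated EG110 cells lay 0.23 above untreated EG103 cells (adjusted *P* = 0.0212).

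*DCI1* (YOR180C), the close relative of *ECI1* in the yeast genome that is annotated as a dienoyl-CoA isomerase, had the largest interaction of the 38 genes. Aspirin-treated EG110 cells read 9.05, 9.06 and 9.17, against 9.83, 9.92 and 9.70 in untreated EG110 cells (log2 fold change -0.72, SE 0.074, adjusted *P* = 1.01e-05). Aspirin-treated EG103 cells read 9.69, 9.71 and 9.83, against 9.19, 9.26 and 9.41 in untreated EG103 cells (log2 fold change 0.46, SE 0.074, adjusted *P* = 0.00212). The groups did not overlap in either strain, and the fall in EG110 cells was called while the higher level in EG103 cells stayed under the fold threshold. The effects differed by -1.18 (SE 0.105, adjusted *P* = 1.02e-05).

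*IDP3* (YNL009W), whose product makes NADPH inside the peroxisome for the reduction of dienoyl-CoA, read 10.47, 10.32 and 10.41 in aspirin-treated EG110 cells, against 11.03, 11.03 and 11.02 in untreated EG110 cells (log2 fold change -0.63, SE 0.139, adjusted *P* = 0.00245). In EG103 cells it read 10.84, 10.79 and 11.32 with aspirin, against 10.98, 10.97 and 11.41 untreated (log2 fold change -0.13, 95% interval -0.44 to 0.17). Replicate 3 was the highest of both EG103 groups. The interaction of -0.49 (adjusted *P* = 0.0738) was not called. With replicate numbers as a block in the fit its adjusted *P* was 0.00124, and only the fold threshold was missed. It was called without aspirin-treated EG103 replicate 2 (-0.59, adjusted *P* = 0.0477) and without untreated EG103 replicate 3 (-0.64, adjusted *P* = 0.0176). *SPS19*, which encodes the dienoyl-CoA reductase that uses this NADPH, had log2 fold changes of 0.10 in EG110 cells (95% interval -0.07 to 0.26) and 0.03 in EG103 cells (95% interval -0.14 to 0.19). *TES1*, the gene of the peroxisomal acyl-CoA thioesterase, had a log2 fold change of -0.22 in EG110 cells (adjusted *P* = 0.0230) and of -0.12 in EG103 cells (adjusted *P* = 0.234).

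**Figure D2:**
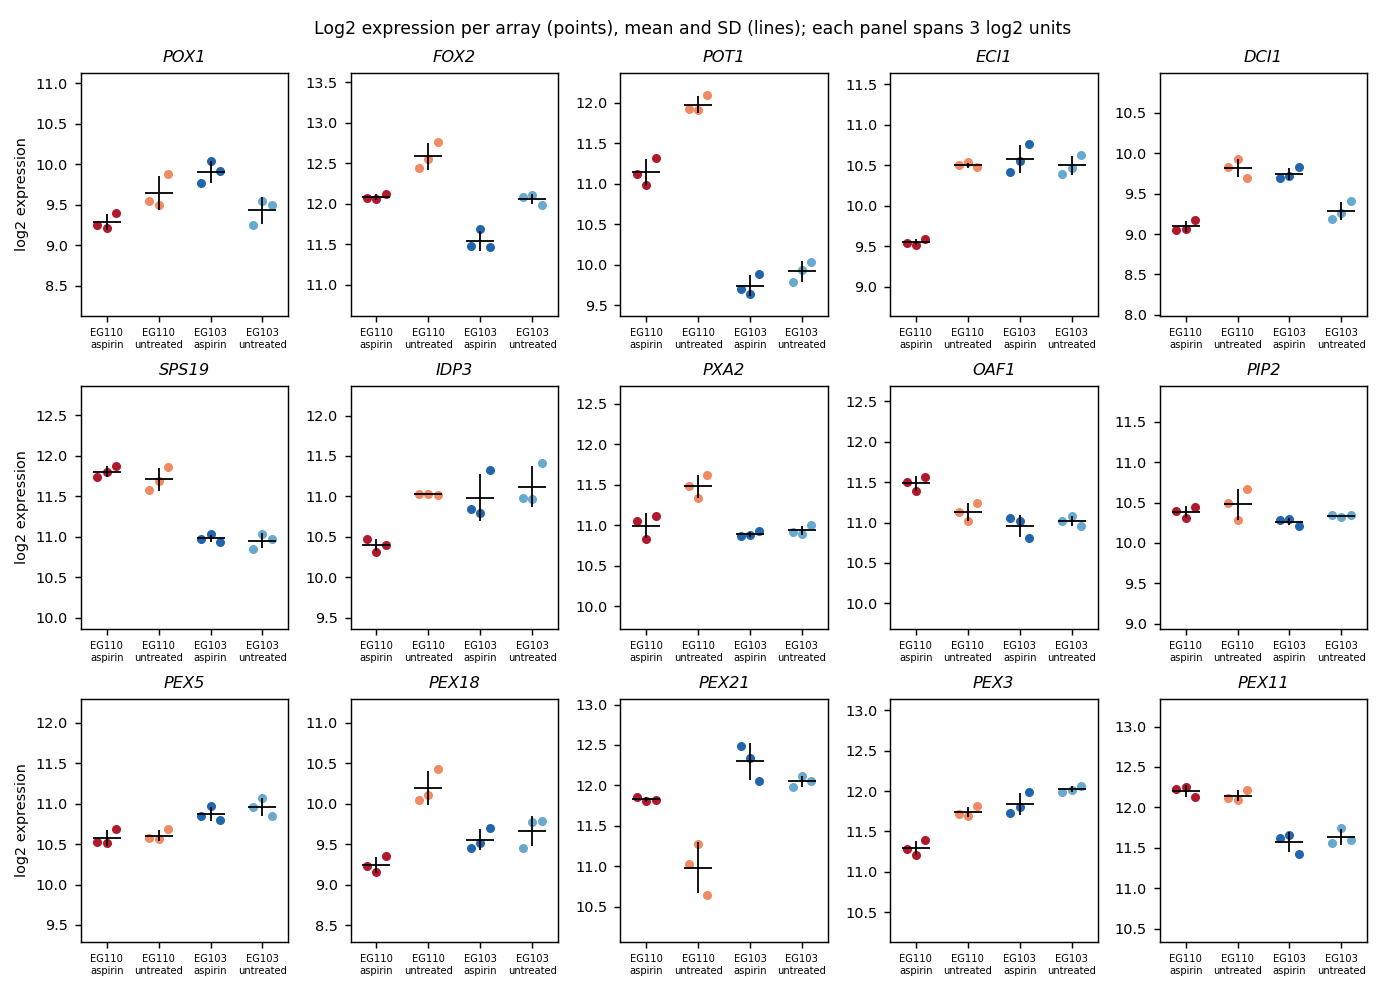
Log2 expression of 15 of the genes on each array (points), with the group mean (horizontal line) and SD (vertical line, n = 3), for aspirin-treated and untreated EG110 cells and aspirin-treated and untreated EG103 cells from left to right. Each panel spans 3 log2 units around its own centre. Values are as deposited, with the shift between the strains left in. On this scale *POX1*, *ECI1*, *DCI1*, *IDP3*, *PXA2*, *PEX5*, *PEX18* and *PEX3* have their lowest points in aspirin-treated EG110 cells, and *PEX21* its lowest in untreated EG110 cells. Centring placed the lowest group means of *POX1* (9.32, untreated) and *PXA2* (10.79, with aspirin) in EG103 cells. After centring, *DCI1* averaged 9.19 in aspirin-treated EG110 cells and 9.18 in untreated EG103 cells.

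Fatty acids enter the peroxisome either as long-chain acyl-CoA through the ABC transporter made of Pxa1 and Pxa2, or as free medium-chain acids that Faa2 activates inside with ATP supplied by the carrier Ant1. None of these 4 genes was called with aspirin in either strain. *PXA1* and *PXA2* had log2 fold changes of -0.57 (SE 0.074, adjusted *P* = 6.35e-05) and -0.48 (SE 0.082, adjusted *P* = 0.000410) in EG110 cells, both just under the fold threshold, against -0.07 and -0.05 in EG103 cells. *PXA1* was called in EG110 cells without aspirin-treated replicate 3 (-0.61), without untreated replicate 3 (-0.60) and without replicate 3 of all groups (-0.65), as well as after quantile normalization of the arrays (-0.60). The interaction was -0.49 for *PXA1* (adjusted *P* = 0.00390) and -0.43 for *PXA2* (adjusted *P* = 0.0132), again under the fold threshold. *ANT1* had -0.25 in EG110 cells (adjusted *P* = 0.00187) and 0.05 in EG103 cells, and *FAA2* had 0.05 and -0.14 (adjusted *P* = 0.619 and 0.245). The transporter pair thus had similar values within each strain.

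*OAF1* and *PIP2* encode the zinc cluster proteins that bind oleate response elements together. *OAF1* (YAL051W) read 11.50, 11.38 and 11.57 in aspirin-treated EG110 cells, against 11.13, 11.01 and 11.24 in untreated EG110 cells (log2 fold change 0.36, SE 0.079, adjusted *P* = 0.00260). The groups did not overlap, and the change was 1.28-fold, under the threshold. In EG103 cells *OAF1* read 11.06, 11.01 and 10.81 with aspirin, against 11.02, 11.08 and 10.96 untreated (log2 fold change -0.06, 95% interval -0.23 to 0.11), and the interaction was 0.42 (adjusted *P* = 0.0142). *PIP2* (YOR363C) read 10.40, 10.31 and 10.45 in aspirin-treated EG110 cells, against 10.49, 10.28 and 10.67 in untreated EG110 cells, and 10.28, 10.29 and 10.21 in aspirin-treated EG103 cells, against 10.34, 10.32 and 10.35 in untreated EG103 cells. Its log2 fold changes were -0.10 (95% interval -0.27 to 0.08) and -0.07 (95% interval -0.25 to 0.10), so that the activator genes had no called change with aspirin in either strain.

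Among the receptors for matrix proteins, the pair *PEX18* and *PEX21* moved in opposite directions. Pex18 and Pex21 are related co-receptors that act with Pex7 in the import of proteins with an N-terminal targeting signal, of which the thiolase Pot1 is the best known. *PEX18* (YHR160C) read 9.24, 9.16 and 9.35 in aspirin-treated EG110 cells, against 10.04, 10.11 and 10.44 in untreated EG110 cells (log2 fold change -0.95, SE 0.115, adjusted *P* = 3.67e-05). In EG103 cells it read 9.45, 9.52 and 9.70 with aspirin, against 9.45, 9.77 and 9.78 untreated (log2 fold change -0.11, 95% interval -0.36 to 0.14). The interaction was -0.84 (SE 0.163, adjusted *P* = 0.00231), and untreated EG110 cells were the group that stood above the other 3.

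*PEX21* (YGR239C) read 11.86, 11.80 and 11.82 in aspirin-treated EG110 cells, against 11.03, 11.27 and 10.64 in untreated EG110 cells (log2 fold change 0.84, SE 0.139, adjusted *P* = 0.000350). Untreated EG110 cells had the lowest and the most scattered values of the 4 groups. In EG103 cells *PEX21* read 12.49, 12.34 and 12.05 with aspirin, against 11.98, 12.12 and 12.05 untreated (log2 fold change 0.24, 95% interval -0.06 to 0.55, adjusted *P* = 0.232). The interaction of 0.60 (SE 0.196, adjusted *P* = 0.0349) was close to both thresholds. When single arrays were left out it stayed called only without untreated EG110 replicate 2, aspirin-treated EG103 replicate 1 or untreated EG103 replicate 1, and without any other array it was between 0.43 and 0.62 with an adjusted *P* between 0.0403 and 0.0761, the lowest value being that without untreated EG110 replicate 3. It was also not called on arrays centred on their medians (0.58, just under the fold threshold), with all probe sets but the controls in the fit (adjusted *P* = 0.0611), or when a replicate number was left out of all groups (0.31 to 0.74, adjusted *P* = 0.0594 to 0.111). The rise in EG110 cells, in contrast, was called in every fit that left out arrays.

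The receptor genes themselves were not called. *PEX5* (YDR244W), which encodes the receptor for the C-terminal targeting signal, read 10.52, 10.52 and 10.69 in aspirin-treated EG110 cells, against 10.57, 10.56 and 10.69 in untreated EG110 cells (log2 fold change -0.03, 95% interval -0.19 to 0.13). It read 10.85, 10.97 and 10.80 in aspirin-treated EG103 cells, against 10.96, 11.07 and 10.84 in untreated EG103 cells (log2 fold change -0.08, 95% interval -0.24 to 0.08). All these limits lie inside a 1.5-fold change. *PEX7*, the gene of the receptor that works with Pex18 and Pex21, had a log2 fold change of -0.18 in both strains (adjusted *P* = 0.0669 for EG110 and 0.116 for EG103). With replicate numbers as a block in the fit the adjusted *P* was 0.0207 for EG110 and 0.041 for EG103. The change stayed under the fold threshold.

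The docking complex of Pex13, Pex14 and Pex17, and Pex8, which links it on the inside to the ubiquitin ligases, form the gate for the loaded receptors. Of these 4 genes, 0 were called in either strain. *PEX8* had -0.39 (SE 0.044, adjusted *P* = 2.03e-05) and *PEX17* -0.32 (SE 0.054, adjusted *P* = 0.000387) in EG110 cells, against -0.09 and -0.23 in EG103 cells. *PEX14* had -0.09 in EG110 cells (adjusted *P* = 0.266) and -0.37 in EG103 cells (SE 0.068, adjusted *P* = 0.00420). *PEX13* had -0.06 and 0.09. *PEX14* passed the adjusted *P* in EG103 cells and not in EG110 cells, and its interaction was 0.27 (adjusted *P* = 0.0483), under the fold threshold.

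The RING ligase genes *PEX2* and *PEX10* had log2 fold changes of 0.02 and -0.23 in EG110 cells, against -0.18 and -0.30 in EG103 cells. *PEX10* passed the adjusted *P* in both strains (0.0245 in EG110 and 0.0193 in EG103 cells), and *PEX2* in EG103 cells (0.0420). For the recycling machinery, *PEX4* (the ubiquitin-conjugating enzyme) had -0.14 in EG110 cells, against 0.22 in EG103 cells, and its membrane anchor gene *PEX22* had -0.05 and 0.00. *PEX6*, which encodes an AAA ATPase that extracts receptors from the membrane, had 0.09 and 0.24, and *PEX15*, which encodes its anchor, had 0.00 and -0.24. In EG103 cells *PEX4*, *PEX6* and *PEX15* passed the adjusted *P* (0.0264, 0.018 and 0.0296), as 20.6% of all tested probe sets did, and *PEX22* did not. None of these recycling genes passed it in EG110 cells. All 6 genes stayed under the fold threshold in both strains. The interaction passed the adjusted *P* for *PEX4* (-0.36, adjusted *P* = 0.00759) and not for *PEX22* (0.654), *PEX6* (0.213) or *PEX15* (0.0747).

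*PEX3* (YDR329C) encodes the membrane protein that, with the chaperone Pex19, inserts peroxisomal membrane proteins. It read 11.29, 11.21 and 11.39 in aspirin-treated EG110 cells, against 11.71, 11.69 and 11.82 in untreated EG110 cells (log2 fold change -0.44, SE 0.071, adjusted *P* = 0.000284). It read 11.73, 11.80 and 11.99 in aspirin-treated EG103 cells, against 11.99, 12.02 and 12.06 in untreated EG103 cells (log2 fold change -0.18, SE 0.071, adjusted *P* = 0.0892). The groups were separate in EG110 cells and met at 11.99 in EG103 cells, and neither value passed the fold threshold. *PEX19* had 0.17 in EG110 cells (adjusted *P* = 0.0134) and -0.06 in EG103 cells.

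Of the proliferation genes, *PEX11* (YOL147C), whose product elongates the membrane before division, read 12.23, 12.25 and 12.12 in aspirin-treated EG110 cells, against 12.12, 12.10 and 12.22 in untreated EG110 cells (log2 fold change 0.06, 95% interval -0.10 to 0.22). It read 11.62, 11.66 and 11.43 in aspirin-treated EG103 cells, against 11.55, 11.74 and 11.60 in untreated EG103 cells (log2 fold change -0.06, 95% interval -0.22 to 0.10). The aspirin groups overlapped the untreated ones in both strains. Its relatives *PEX25* and *PEX27* had 0.03 and -0.52 in EG110 cells, against -0.05 and -0.08 in EG103 cells. *PEX27* (SE 0.082, adjusted *P* = 0.000240 in EG110 cells) lay just under the fold threshold, and was called at -0.59 without untreated EG110 replicate 2, without replicate 2 of all groups and after quantile normalization. Among the 5 genes that set peroxisome size and number, *PEX30* had -0.45 and its paralog *PEX31* 0.38 in EG110 cells (adjusted *P* = 8.36e-06 and 0.000136), against -0.14 and 0.18 in EG103 cells. *PEX28*, *PEX29* and *PEX32* had -0.20, 0.26 and -0.23 in EG110 cells and -0.06, -0.04 and 0.03 in EG103 cells. All 5 passed the adjusted *P* in EG110 cells, as 52.3% of all tested probe sets did, and none the fold threshold.

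**Figure D3:**
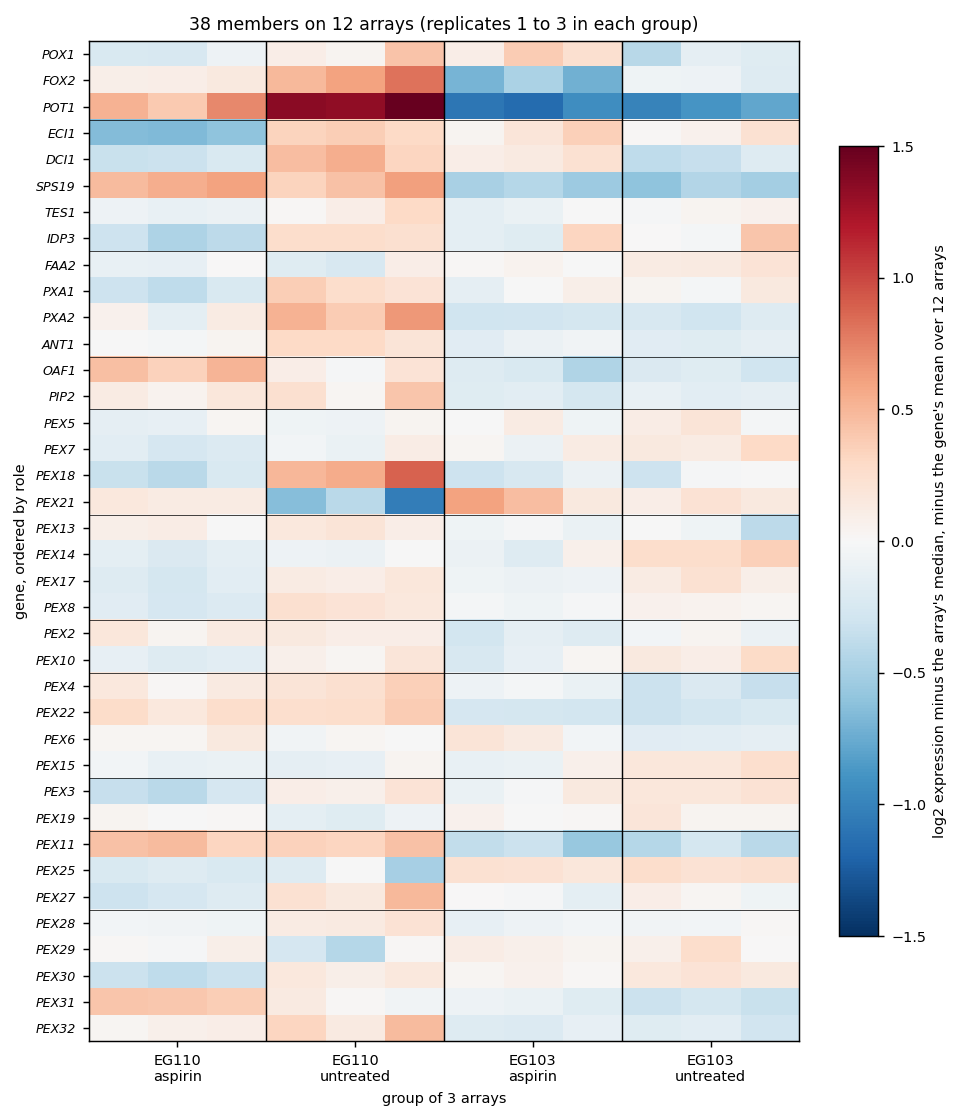
Log2 expression of the 38 genes on the 12 arrays after each array's median and then each gene's mean over the arrays were subtracted (colour scale from -1.5 to 1.5 log2 units). Rows are genes ordered by role and columns are replicates 1 to 3 of aspirin-treated EG110, untreated EG110, aspirin-treated EG103 and untreated EG103 cells. *POT1* separates the strains on every array, and *ECI1*, *DCI1*, *PEX18* and *PEX21* separate the EG110 groups.

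Between the strains, the thiolase gene *POT1* had the largest difference of the 38 genes, at 4.88-fold higher in untreated EG110 than in untreated EG103 cells. In this comparison 8 of the 38 genes were called (21.1%), 7 higher and 1 lower, and 21.3% of all tested probe sets were called, 13.2% higher and 8.14% lower. By adjusted *P* alone 30 genes passed (78.9%, background 67.7%), 22 higher (background 36.6%) and 8 lower (background 31.1%), and for 30 genes the groups did not overlap (background 68.6%). The genes called higher in EG110 cells were *POT1*, *SPS19*, *PXA2*, *FOX2*, *PEX18*, *DCI1* and *PEX11*, and *PEX21* was lower. The median log2 difference was 0.21, against 0.03 for all tested probe sets, and 0.43 for the 12 enzyme and transport genes, of which 11 were positive. With aspirin, 6 genes were called (15.8%, background 22.2%), 5 higher (background 12%) and 1 lower (background 10.2%). By adjusted *P* alone 24 passed (63.2%, background 68.7%), 12 higher (background 35.1%) and 12 lower (background 33.6%), and for 26 genes (68.4%, background 76.8%) the groups did not overlap. Those called were *POT1*, *SPS19*, *PEX11*, *FOX2* and *OAF1*, all higher in EG110 cells, and *ECI1*, which was lower. The untreated EG110 arrays enter both the untreated strain comparison and the aspirin comparison in EG110 cells, and the aspirin-treated arrays enter the other comparisons in the same way, so that these lists are not independent of each other.

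After centring, *POT1* averaged 11.24 ± 0.16 in aspirin-treated EG110 cells and 9.64 ± 0.12 in aspirin-treated EG103 cells (log2 difference 1.60, SE 0.093, adjusted *P* = 4.23e-08), and 12.09 ± 0.10 in untreated EG110 cells and 9.81 ± 0.11 in untreated EG103 cells (log2 difference 2.29, SE 0.093, adjusted *P* = 3.93e-09; SD, n = 3 each). The strains were far apart with and without aspirin. *SPS19* (YNL202W) read 11.74, 11.80 and 11.87 as deposited in aspirin-treated EG110 cells, against 10.97, 11.03 and 10.94 in aspirin-treated EG103 cells, and 11.58, 11.68 and 11.87 in untreated EG110 cells, against 10.85, 11.04 and 10.97 in untreated EG103 cells. Its centred differences were 1.02 with aspirin (SE 0.073, adjusted *P* = 2.01e-07) and 0.98 without it (SE 0.073, adjusted *P* = 3.3e-07). The strains did not overlap in either comparison, and the differences were close to each other. *PEX11* differed by 0.83 with aspirin (SE 0.074, adjusted *P* = 1.21e-06) and 0.74 without it (SE 0.074, adjusted *P* = 3.53e-06), and *FOX2* by 0.74 and 0.75 (adjusted *P* = 1.01e-05 and 9.57e-06).

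*PXA2* (YKL188C) read 11.05, 10.82 and 11.11 as deposited in aspirin-treated EG110 cells, against 10.87, 10.87 and 10.92 in aspirin-treated EG103 cells, and 11.48, 11.34 and 11.62 in untreated EG110 cells, against 10.92, 10.90 and 11.00 in untreated EG103 cells. The centred difference was called without aspirin (0.76, SE 0.079, adjusted *P* = 4.63e-06) and not with it (0.30, SE 0.079, adjusted *P* = 0.00479). For its partner *PXA1* the differences were -0.29 with aspirin and 0.23 without it, neither of them called. *DCI1* and *PEX18* were likewise higher in untreated EG110 than in untreated EG103 cells, both by 0.75 (adjusted *P* = 2.16e-06 and 7.8e-05), while with aspirin their differences were -0.45 and -0.11. *PEX21* was 0.85 log2 units lower in untreated EG110 cells, at a centred mean of 11.10 ± 0.32, against 11.94 ± 0.06 in untreated EG103 cells (log2 difference -0.85, SE 0.140, adjusted *P* = 0.000202), and the difference with aspirin was -0.27 (adjusted *P* = 0.104).

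With aspirin the lowest differences were those of *ECI1*, *DCI1* and *POX1*, the last equal to that of *PEX25* after rounding. *ECI1* averaged 9.65 ± 0.03 after centring in aspirin-treated EG110 cells and 10.48 ± 0.16 in aspirin-treated EG103 cells (log2 difference -0.83, SE 0.077, adjusted *P* = 1.72e-06), and its difference without aspirin was 0.23 (adjusted *P* = 0.0212). *POX1* differed by -0.42 with aspirin (adjusted *P* = 0.00456) and 0.44 without it (adjusted *P* = 0.00373), neither past the fold threshold. *OAF1* differed by 0.72 with aspirin (SE 0.080, adjusted *P* = 7.72e-06) and 0.33 without it (adjusted *P* = 0.00315), and *PIP2* by 0.32 and 0.37 (adjusted *P* = 0.00389 and 0.00164). The activator genes were on the same side in both comparisons, and *ECI1*, *DCI1* and *POX1* were not.

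Below zero in the untreated comparison, *PEX25* and *PEX14* followed *PEX21*. *PEX25* (YPL112C) read 10.88, 10.90 and 10.88 as deposited in aspirin-treated EG110 cells, against 11.54, 11.51 and 11.49 in aspirin-treated EG103 cells, and 10.89, 11.08 and 10.60 in untreated EG110 cells, against 11.56, 11.54 and 11.56 in untreated EG103 cells. Its centred differences were -0.42 with aspirin (adjusted *P* = 0.00142) and -0.48 without it (adjusted *P* = 0.000619), under the fold threshold. The untreated difference was called without untreated EG110 replicate 2 (-0.59). *PEX14* (YGL153W) read 11.36, 11.28 and 11.37 in aspirin-treated EG110 cells, against 11.62, 11.50 and 11.79 in aspirin-treated EG103 cells, and 11.41, 11.41 and 11.48 in untreated EG110 cells, against 11.96, 11.98 and 12.07 in untreated EG103 cells, with centred differences of -0.10 and -0.35 (adjusted *P* = 0.171 and 0.000409). *PEX4*, *PEX22* and *PEX32* had untreated differences of 0.56, 0.57 and 0.52, close to the threshold. They were called when certain arrays were left out, *PEX4* without untreated EG110 replicate 1 (0.59) or untreated EG103 replicate 2 (0.60) and *PEX22* without untreated EG110 replicate 1 (0.60) or 2 (0.59) or untreated EG103 replicate 3 (0.60). *PEX32* was called without untreated EG110 replicate 2 (0.61). Without replicate 2 of all groups, *PEX4* (0.61), *PEX22* (0.59), *PEX32* (0.64) and *PEX25* (-0.60) were all called.

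The centring matters for these counts. With the values as deposited, 4 genes were called in the untreated comparison (2 higher and 2 lower), while 24.8% of all tested probe sets were. *POT1*, *SPS19* and *PEX21* were still called, *PEX25* was added at -0.70, and *FOX2*, *DCI1*, *PXA2*, *PEX18* and *PEX11* had differences of 0.51 to 0.54, under the fold threshold. With aspirin, 8 genes were called (3 higher and 5 lower), against 25.1% of all tested probe sets. *OAF1* at 0.52 and *FOX2* at 0.54 were no longer called, and *POX1* (-0.62), *DCI1* (-0.65), *IDP3* (-0.59) and *PEX25* (-0.62) were added.

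**Figure D4:**
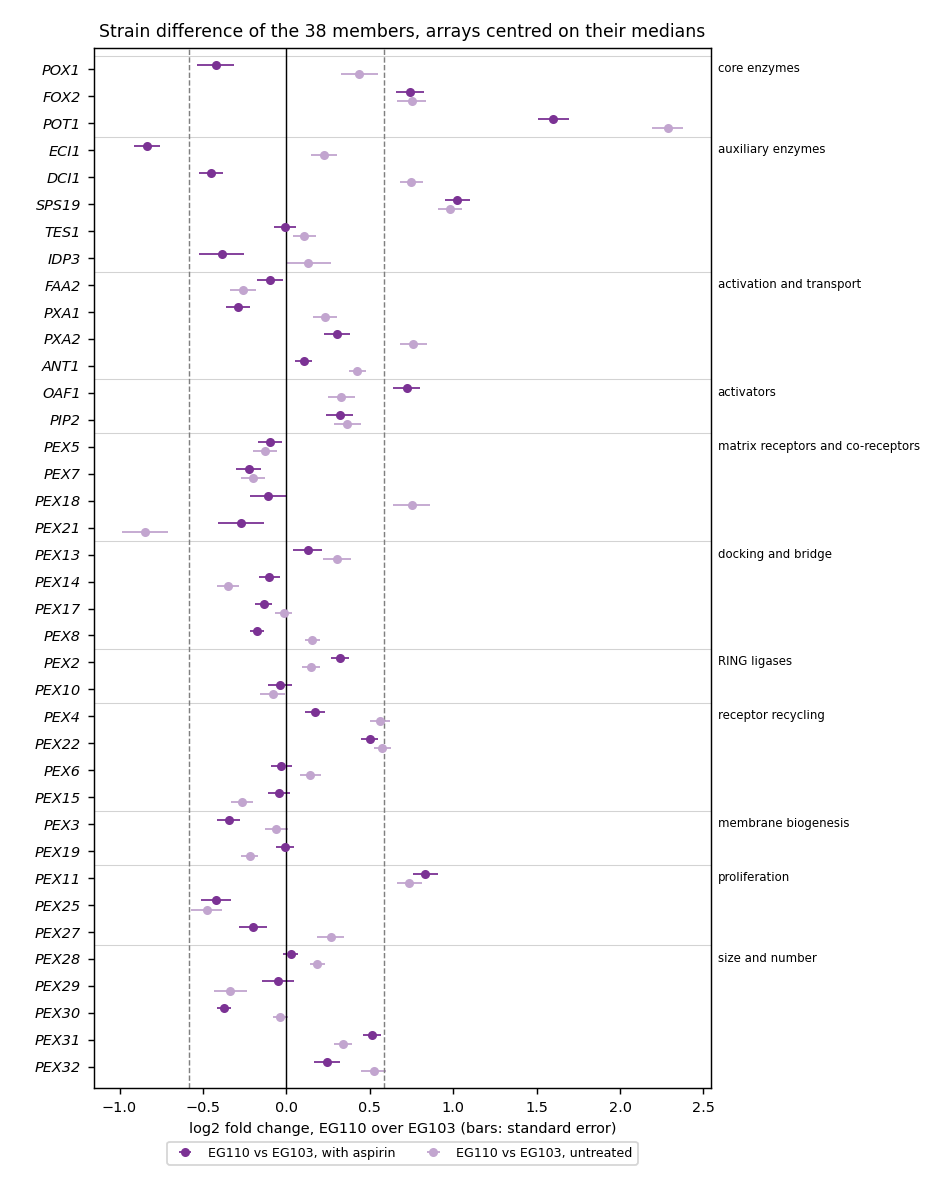
Log2 difference of EG110 over EG103 cells for the 38 genes, ordered by role, with aspirin (dark purple) and untreated (light purple), on arrays centred on their medians. Points are limma's estimates, bars are standard errors, and dashed lines mark a fold change of 1.5. *POT1*, *SPS19*, *FOX2* and *PEX11* lie beyond the right line in both comparisons, *PEX21* beyond the left line only when untreated, and *ECI1* only with aspirin.

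A list of 30 other peroxisome genes was set beside these. It held the remaining peroxins, inheritance and division factors, matrix enzymes other than those of β-oxidation, fatty acid activation in the cytosol, and the regulators Adr1 and Oaf3. In aspirin-treated against untreated EG110 cells, 2 of the 30 were called (6.67%, background 12%), both lower. These were *CIT2*, the gene of the peroxisomal citrate synthase, at -0.78 (SE 0.070, adjusted *P* = 3.42e-06), and *CAT2*, the gene of the carnitine acetyltransferase of peroxisomes and mitochondria, at -1.35 (SE 0.079, adjusted *P* = 1.19e-07). Both had been singled out by the study on these arrays, so that their direction is not independent evidence. In EG103 cells 0 of the 30 were called (background 2.61%), and 8 had an unadjusted *P* below 0.05 in limma (26.7%, background 35.6%). By the interaction 3 of the 30 were called (10%, background 11.6%), of which *CIT2* (-0.80) and *CAT2* (-1.41) were negative and *FAT1* (0.64), the gene of a fatty acid importer, positive.

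Another 5 genes of this list passed the adjusted *P* in EG110 cells with changes of over 0.5 on the log2 scale that stayed under the fold threshold, a limit chosen after the values were seen. *FAT1* had 0.58 (adjusted *P* = 7.15e-06), the malate synthase gene *MLS1* -0.56 (adjusted *P* = 2.87e-06) and the cystathionine β-lyase gene *STR3* -0.55 (adjusted *P* = 0.00736). *INP1*, which encodes a factor that keeps peroxisomes in the mother cell, had -0.54 (adjusted *P* = 0.000392), and *CTA1*, the gene of the peroxisomal catalase, had -0.53 (adjusted *P* = 0.000972). *ADR1* had -0.01 in EG110 cells (95% interval -0.23 to 0.22) and 0.22 in EG103 cells (95% interval -0.00 to 0.45). Between untreated EG110 and untreated EG103 cells, 8 of the 30 were called (26.7%, background 21.3%), 4 in each direction. The higher ones were *PEX9* (1.04), which encodes a receptor related to Pex5, *CTA1* (0.93), *STR3* (0.86) and *ATG36* (0.77), whose product marks peroxisomes for autophagy. The lower ones were the lysine synthesis gene *LYS1* (-0.90), the acyl-CoA synthetase gene *FAA1* (-0.80), *CAT2* (-0.72) and *ADR1* (-0.66). With aspirin 7 were called (23.3%, background 22.2%), *STR3* higher (0.72) and 6 lower, which were *CAT2* (-2.15, SE 0.078, adjusted *P* = 8.52e-10), *LYS1* (-1.42), *ADR1* (-0.92), *CIT2* (-0.72), *INP1* (-0.64) and *FAA3* (-0.60).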

How the data were processed

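RNA of 12 yeast cultures, 3 biological replicates of each group, was hybridised to Affymetrix GeneChip Yeast Genome 2.0 arrays. The deposited log2 expression values were made by the authors with RMA (robust multi-array average) in AltAnalyze 2.0.8.1. RMA corrects the background, normalizes arrays to each other and summarises probes on a log scale, which compresses differences of weakly expressed genes. Whether EG110 and EG103 arrays went through RMA together is not given in the sources used here. The same table holds the authors' log2 and signed linear fold changes and their unadjusted and adjusted *P* values for aspirin against untreated cells of each strain, and none of these was used.

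Of 10928 rows, 213 are controls, 4999 have no *S. cerevisiae* gene and 5716 were tested, 140 of which list several genes. No filter on low values was applied. Genes were matched by symbol, 3 of the other peroxisome genes by systematic name, and all 38 systematic names are those of the R64 annotation. No coordinates or sequences are given, since the table names no assembly and no sequence table was used.

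limma 3.58.1 in R 4.3.3 was fitted with the 4 groups in 1 model (8 residual degrees of freedom), with Benjamini-Hochberg adjustment over the 5716 probe sets in each comparison. Calls needed an adjusted *P* below 0.05 together with a change of 1.5-fold or more. The comparisons were aspirin against untreated cells in each strain, the interaction, and EG110 against EG103 cells with and without aspirin, the last 2 on arrays centred on the median of the tested probe sets. The number of arrays limits the precision. The median SD between arrays of a group was between 0.0550 and 0.0870 log2 units. All 38 genes are named. Values on each array are given for genes called in an aspirin comparison or the interaction, for *POX1*, *FOX2*, *POT1*, *OAF1*, *PIP2*, *PEX3*, *PEX5* and *PEX11*, and for the 3 largest differences in each direction between the strains. The script was tested on simulated data. The genes, roles and lists were chosen with earlier results of these data known.

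Whether replicate numbers pair the arrays was checked by correlating, across probe sets, the deviations of same-numbered arrays from their group means. This gave 0.229, 0.142 and 0.343 in EG110 cells. Of the differently numbered EG110 arrays, aspirin-treated 2 with untreated 1 gave 0.221, and the others lay between -0.387 and 0.0623. Whether the numbers pair the EG110 arrays is thus not settled, and no label says that a number marks a shared day. In EG103 cells same-numbered arrays gave 0.0166, 0.485 and 0.450. Of the differently numbered EG103 arrays, aspirin-treated 1 with untreated 2 gave 0.182, and the others lay between -0.492 and 0.00249. Numbers 2 and 3 thus gave the highest values, but number 1 gave less than a pair of different numbers, so that pairing is not settled here either. Same-numbered arrays gave 0.209, -0.285 and -0.141 between the untreated strains, and -0.196, -0.0910 and -0.121 between the strains with aspirin. No main fit paired the arrays, and the replicate block was an alternative. Alternatives were a replicate block, each array or replicate number left out, quantile normalization of the 12 arrays and the other centring. Others were the lowest 25% of probe sets left out, a trended and robust variance and only the arrays compared. The last were an ordinary unpaired *t*-test, no fold threshold or one of 2, and all probe sets but the controls. Plots used Python 3.11.15 with matplotlib 3.10.9.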

Additional observations from a re-analysis of the deposited data

Results flagged for a closer look

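The aspirin effect in EG110 cells differed from that in EG103 cells for 6 of the 38 genes (15.8%, background 11.6%). This is by limma's interaction term at an adjusted *P* below 0.05 and a difference of at least 1.5-fold. For *DCI1* the effects were -0.72 in EG110 and 0.46 in EG103 cells on the log2 scale, a difference of -1.18 (adjusted *P* = 1.02e-05). For *ECI1* they were -0.95 and 0.08, a difference of -1.04 (adjusted *P* = 5.26e-05). For *POX1* they were -0.36 and 0.48, a difference of -0.84 (adjusted *P* = 0.00196). For *PEX18* they were -0.95 and -0.11, a difference of -0.84 (adjusted *P* = 0.00231). The difference for *POT1* was -0.66 (effects -0.84 and -0.18, adjusted *P* = 0.00371). That for *PEX21* was 0.60 (effects 0.84 and 0.24, adjusted *P* = 0.0349), and it was lost in 14 of the 21 alternatives that keep the fold threshold, centring on the array medians among them, with values between 0.31 and 0.75 and an adjusted *P* of up to 0.111. Groups of 3 arrays were not tested for single outlying arrays.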

How the results depend on the processing

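No called direction of the 38 genes reversed under any alternative. The replicate block changed no call of these genes. It brought some adjusted *P* values below 0.05, such as that of *IDP3* in the interaction (0.0738 to 0.00124). Others went the other way, such as *PEX27* between the strains with aspirin (0.0484 to 0.0701). With the block 6 genes stayed called for aspirin in EG110 cells (12% of all probe sets) and 0 in EG103 cells (2.59%). In the interaction 6 stayed called (11.9%), and between the strains 8 untreated (21.3%) and 6 with aspirin (22.1%). Without the lowest 25% of probe sets, 4287 probe sets were tested, and 11 of the 38 genes were not. Of these genes 3 were called in EG110 cells (9.75% of the 4287 probe sets, 418 instead of 685). In the interaction 2 were called (9.35%, 401 instead of 662). In the other comparisons 97 instead of 149 (2.26% of the 4287), 760 instead of 1219 (17.7%) and 843 instead of 1267 (19.7%) probe sets were called. The filter removed *ECI1*, *DCI1*, *PEX18* and *POX1* themselves. With no fold threshold the numbers were 24, 12, 16, 30 and 24 in the order above (2987, 1175, 1894, 3868 and 3926 of all probe sets), and with a threshold of 2 they were 0 in EG110 cells, 2 in the interaction, 1 between the untreated strains and 2 between the strains with aspirin (197, 206, 387 and 448 of all, and 27 in EG103 cells). With the values as deposited, 4 were called between the untreated strains (24.8% of all probe sets). When arrays or replicate numbers were left out, the numbers ranged over 6 to 7 in EG110 cells, 0 to 1 in EG103 cells (1, *FOX2*, without aspirin-treated replicate 2), 4 to 6 in the interaction, 8 to 12 between the untreated strains, and stayed at 6 with aspirin. These fits called 11.6% to 12.6% of all probe sets in EG110, 1.26% to 3.41% in EG103 and 10.1% to 12.5% in the interaction. Between the strains they called 20.9% to 22.6% untreated and 21.3% to 22.7% with aspirin. Of all probe sets in EG103 cells, 149 were called, but 60 by the ordinary unpaired *t*-test and 72 without replicate 1. Quantile normalization gave 8 called in EG110 cells (12.2% of all probe sets), with *PXA1* and *PEX27* added. It changed no other count of called genes among the 38. Of all probe sets it called 697, 143, 660, 1171 and 1236 in the order above. Over the 38 genes and the alternatives that keep the fold threshold, 0 calls of a single gene were lost and 7 gained with aspirin in EG110 cells, 0 and 1 with aspirin in EG103 cells, 16 and 2 in the interaction (14 of the losses for *PEX21*), 5 and 12 between the untreated strains and 2 and 4 with aspirin. With the changed fold thresholds included these were 6 and 25, 0 and 13, 20 and 12, 12 and 34, and 6 and 22. Uncalled values changed sign in 13, 15, 22, 10 and 19 cases. The interaction was not fitted with only the arrays compared or with the *t*-test.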
